A study of Mus musculus with 6 samples.

Results

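The data described here are the deposited values of 9 genes of the Hedgehog pathway, Gli1, Gli2, Gli3, Ptch1, Smo, Sufu, Hhip, Boc and Cdon, chosen by name and not by a measured value. All 9 were found among the 37620 genes of the count tables, and all 9 passed the filter on low counts that left 15056 genes for testing. The samples are ribosome-bound mRNA from the dentate gyrus of adult mice aged 2 to 3 months. In the RiboTag assay a Cre recombinase turns on a hemagglutinin-tagged ribosomal protein, Rpl22HA, so that tagged ribosomes and the mRNA bound to them can be immunoprecipitated from whole tissue. The Klf9 +/+ group comprised 3 samples from mice carrying Gli1CreERT2, Rpl22HA f/+ and Klf9 +/+, and the Klf9 f/f group comprised 3 samples from mice carrying Gli1CreERT2, Rpl22HA f/+ and Klf9 f/f, which the titles call knock down. Both groups received 3 tamoxifen injections 12 hr apart, and tissue was taken 4 days after the last. Each sample is a pool of 6 dentate gyri from 3 mice, so the spread between samples is a spread between pools.

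Gli1, one of the 9 genes, also sets which cells were sampled, because the Cre in every mouse of both groups is expressed from the Gli1 locus. The label on the samples is Gli1+ radial glia-like cells (RGLs). The study states that this driver targets astrocytes too. By its account the profile largely covers RGLs, the progeny of their first division and astrocytes. The number of intact Gli1 copies in these mice is not given in the sources used here, and one deposited value per gene cannot separate the alleles. Comparison with the whole dentate homogenate was not analysed here, so the levels below are levels within the pulled-down mRNA and not enrichment over the tissue.

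Hedgehog ligands act through the receptor Ptch1, which in their absence holds the transmembrane protein Smo inactive. Ligand binding, helped by the co-receptors Boc and Cdon, releases Smo to the primary cilium, where it relieves the Gli transcription factors from Sufu, which retains them in the cytoplasm. Gli2 is the main activator, Gli3 is mostly processed to a repressor, and Gli1 is itself a transcriptional target whose mRNA is widely used as a readout of the pathway. Ptch1 and Hhip, a decoy that binds ligand at the membrane, are further targets and act as negative feedback. In the adult hippocampus the pathway is known for its role in maintaining neural stem cells and their proliferation. Klf9 is a zinc finger transcription factor known to bind GC-rich elements.

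Start-site windows of 300 bases (250 before to 50 after each RefSeq start, table build GRCm38.p6) were found for 7 of the 9 genes. Each of the 7 matched mm9, the build of the counts, exactly and once, and the coordinates here are those of mm9. The windows of Gli2 and Gli3 are shown because these are the factors through which the pathway acts, and those of Ptch1 and Hhip because both are feedback targets of these factors. The Gli2 window is chr1:120950147-120950446 on the minus strand, with the RefSeq start at the outermost GENCODE M1 start. The Gli3 window is chr13:15555306-15555605 on the plus strand, with a start 488 bp inside the annotated gene. The Ptch1 window is chr13:63666994-63667293 on the minus strand, with a start 7431 bp inside the annotated gene. The Hhip window is chr8:82581858-82582157 on the minus strand, with a start 2 bp outside the annotated gene. Capitals mark the GC box letters GGGCGG and the CACCC letters, searched on both strands.
Gli2: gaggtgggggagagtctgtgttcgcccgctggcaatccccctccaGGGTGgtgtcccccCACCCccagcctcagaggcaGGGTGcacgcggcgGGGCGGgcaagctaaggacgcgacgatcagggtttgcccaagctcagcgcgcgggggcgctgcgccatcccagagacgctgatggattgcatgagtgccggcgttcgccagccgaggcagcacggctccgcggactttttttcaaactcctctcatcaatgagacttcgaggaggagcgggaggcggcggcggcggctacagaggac
Gli3: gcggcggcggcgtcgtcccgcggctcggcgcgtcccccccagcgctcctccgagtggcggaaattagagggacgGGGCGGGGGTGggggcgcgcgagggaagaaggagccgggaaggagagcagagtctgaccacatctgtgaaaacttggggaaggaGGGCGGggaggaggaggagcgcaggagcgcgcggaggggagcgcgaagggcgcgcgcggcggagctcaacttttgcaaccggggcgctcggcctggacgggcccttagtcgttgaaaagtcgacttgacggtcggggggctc
Ptch1: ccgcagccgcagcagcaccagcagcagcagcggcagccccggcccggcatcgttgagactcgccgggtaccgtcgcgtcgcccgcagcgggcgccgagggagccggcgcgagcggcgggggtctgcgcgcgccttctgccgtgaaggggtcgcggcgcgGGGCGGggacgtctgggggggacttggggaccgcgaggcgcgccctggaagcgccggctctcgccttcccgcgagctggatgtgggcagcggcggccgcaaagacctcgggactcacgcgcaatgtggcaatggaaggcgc
Hhip: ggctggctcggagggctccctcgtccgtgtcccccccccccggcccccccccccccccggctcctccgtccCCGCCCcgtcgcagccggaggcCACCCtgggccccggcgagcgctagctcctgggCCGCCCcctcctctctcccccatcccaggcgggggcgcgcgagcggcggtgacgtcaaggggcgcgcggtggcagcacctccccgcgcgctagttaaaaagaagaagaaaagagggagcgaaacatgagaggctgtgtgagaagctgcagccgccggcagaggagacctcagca

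The GC content of the 4 windows was 67.3% for Gli2, 71.0% for Gli3, 76.3% for Ptch1 and 73.7% for Hhip, and that of the others 67.7% for Smo, 56.3% for Sufu and 44.7% for Cdon, against a median of 52.7% over 32851 windows. The Cdon start lies 30948 bp inside the annotated gene. GGGCGG was present in 5 of the 7 windows of these genes and in 35.7% of all windows. CACCC was present in 4 of the 7 and in 57.5% of all windows. The 9-letter Gli sequence GACCACCCA, which contains CACCC, was in 0 of the 7 windows and in 0.253% of all windows. These matches describe the letters of the windows alone, and no binding was measured in these libraries.

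The libraries held 21594714 to 66343759 counts on genes. The library names begin with 1 of 2 numbers, 22 for replicates 1 and 2 of each genotype and 32 for replicate 3 of each genotype, and they are called library series here, without knowledge of what the numbers stand for. The series 32 libraries held 21594714 and 27594529 counts and those of series 22 between 52188635 and 66343759. Reads that HTSeq set aside as not uniquely mapped were 12.99% and 13.6% in series 32 and 7.63% to 8.95% in series 22, while reads set aside as ambiguous between genes were 1.35% and 1.38% against 2.42% to 2.64%. The mRNA of Klf9 itself, counted over the whole gene, ran from 139 to 204 CPM (counts scaled to library size) in Klf9 +/+ and from 114 to 121 CPM in Klf9 f/f, and the genotypes did not overlap. Its log2 difference was -0.78 within series 22 and -0.21 within series 32, where the pair had 139 and 120.0 CPM. Of 78 marker genes for 14 cell types, all were detected in every library. The summed level of 9 radial glia-like stem cell markers (such as Hopx, Sox2 and Nes) was 2317 to 2998 CPM in Klf9 +/+ and 2621 to 2943 CPM in Klf9 f/f, and that of 10 astrocyte markers (such as Gfap and Aldoc) 11719.5 to 14619.5 CPM and 14665 to 17696 CPM. Because markers of all 14 cell types were detected, the presence of stem cell markers does not test the label of the samples. The higher astrocyte sum compares the listed genes and not numbers of cells. The study also used GFAP to identify RGLs, so a higher sum of this list is not particular to astrocytes.

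Levels of the 9 genes were compared per kilobase of annotated exon. Smo was the highest at 12.4 ± 4.22 CPM per kb (SD, n = 6), at the percentile 66.4 of the 15035 tested genes with a length. Sufu followed at 8.64 ± 1.96 CPM per kb (SD, n = 6). Smo and Sufu thus stood above the receptor Ptch1. Gli3 was at 4.27 ± 0.964 and Ptch1 at 3.76 ± 0.948 CPM per kb (SD, n = 6). Gli3 was above Ptch1 in 4 of 6 samples, so the order of these neighbours did not exceed the spread. Boc came next at 2.63 ± 0.891 CPM per kb and Cdon at 1.80 ± 0.377 CPM per kb (SD, n = 6), with Boc above Cdon in 6 of 6 samples. Gli2 at 1.42 ± 0.294 CPM per kb and Gli1 at 1.36 ± 0.668 CPM per kb (SD, n = 6) were not separable, with Gli2 higher in 4 of 6 samples. Hhip was the lowest at 0.669 ± 0.194 CPM per kb (SD, n = 6), below Gli1 in 6 of 6 samples. Every other neighbouring pair, Smo over Sufu, Sufu over Gli3, Ptch1 over Boc and Cdon over Gli2, kept its order in 6 of 6 samples. With the longest annotated transcript as the length, 5 of the 9 genes kept their place, while Sufu moved above Smo and Ptch1 above Gli3. The driver Gli1 stood at the percentile 20.1 of the tested genes and Hhip at 11.0.

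**Figure D1:**
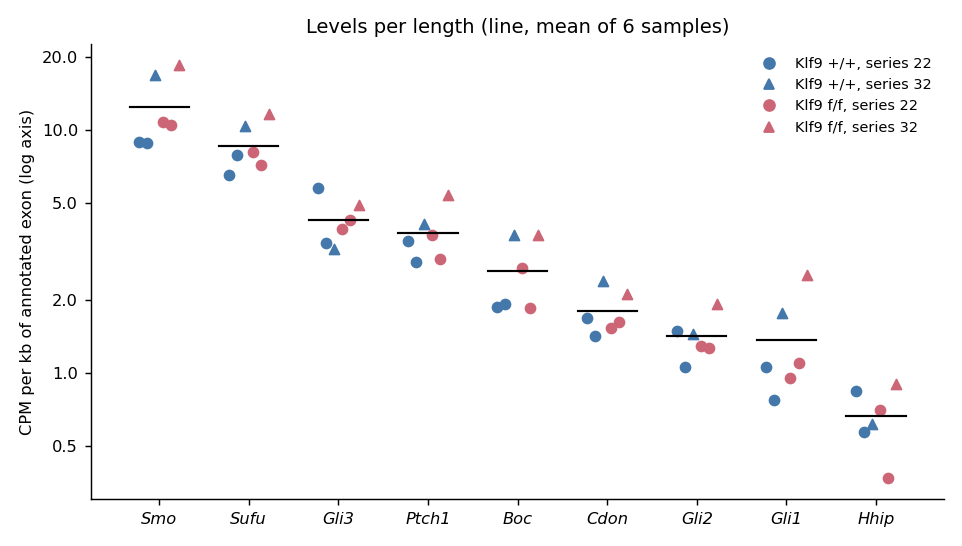
Level of each gene in each of the 6 samples in CPM per kb of annotated exon on a log axis, with circles for library series 22, triangles for series 32, blue for Klf9 +/+, red for Klf9 f/f and a line at the mean. Smo and Sufu are the highest at 12.4 and 8.64 CPM per kb on average and Hhip is the lowest at 0.669 CPM per kb.

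The first comparison asked whether these mRNAs differ on ribosomes between Klf9 f/f and Klf9 +/+. Klf9 itself was at 0.66-fold (unadjusted p = 0.00319, adjusted p = 0.844, both by edgeR's quasi-likelihood test). The study removed exon 1 of Klf9 and, in reporter mice, estimated that not all labelled cells recombined. Its qRT-PCR on an independent set of pulled-down mRNA also found Klf9 lower in Klf9 f/f. Counts over the whole gene do not measure the loss of that exon. No gene of the 9 was called, at the 1.2-fold and unadjusted p under 0.05 of the study's methods, where 650 of 15056 genes (4.32%) were. Log2 fold changes of Klf9 f/f over Klf9 +/+ ran from -0.094 to 0.29, and their median was 0.14 against 0.0008 over all tested genes. Of the 9 genes 7 were above 0, against 50.2% of all tested genes. The signs of Gli2, Gli3, Boc, Cdon and Hhip turned with a sample left out, as given below. At a Benjamini-Hochberg adjusted p under 0.05, taken over all tested genes, 0% were called by the quasi-likelihood test of edgeR, whose smallest adjusted p was 0.0683 and which gave 650 genes an unadjusted p under 0.05. The likelihood-ratio test of edgeR called 58 and DESeq2 39 genes at an adjusted p under 0.05. The adjusted p of each of the 9 genes was 1 in the quasi-likelihood test of edgeR. In these bulk samples, fewer cells of a type and less RNA per cell cannot be told apart.

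**Figure D2:**
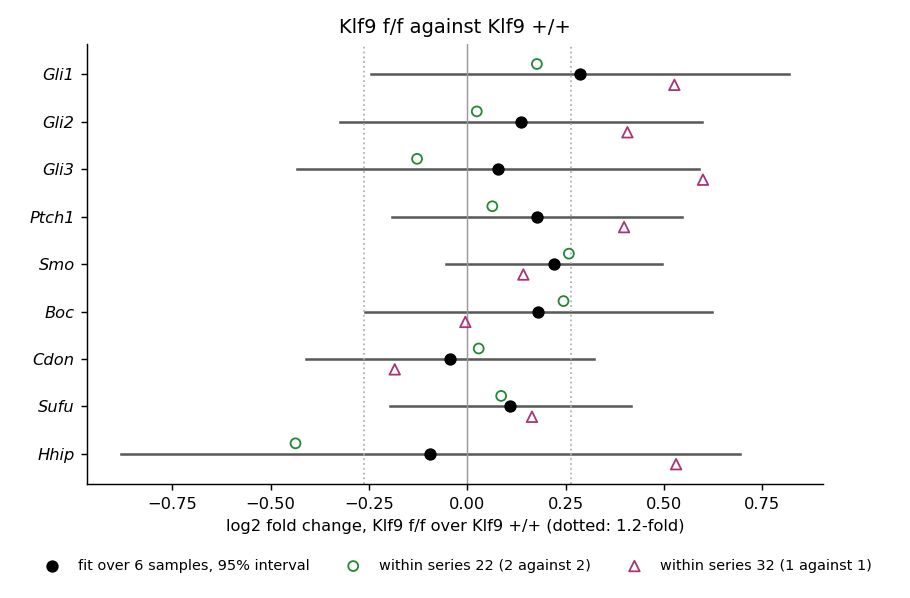
Log2 fold change of Klf9 f/f over Klf9 +/+ for the 9 genes, with filled points and 95% intervals from the fit over 6 samples, open circles for the difference within series 22 and open triangles within series 32. All 9 intervals cross 0, and for Gli3 and Hhip the series 22 value is below 0 and the series 32 value above it.

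Among the Gli factors, Gli1 (ENSMUSG00000025407, mm9 chromosome 10, 126766945 to 126778645, minus strand) had 4.00, 2.92 and 6.67 CPM in the Klf9 +/+ replicates, given here and below in the order 1, 2 and 3. The Klf9 f/f replicates had 3.60, 4.16 and 9.62 CPM. The genotypes overlapped, and the highest sample of each genotype was its series 32 library. On the log2 scale Klf9 f/f differed from Klf9 +/+ by 0.29 (1.22-fold, standard error 0.24, 95% interval -0.24 to 0.82). Within series 22 the log2 difference was 0.18 and within series 32, with 1 sample a genotype, it was 0.53. Leaving out single samples gave Gli1 log2 fold changes of 0.16 to 0.46. Reads were counted without strand, and Gli1 shares 55 bp of exon with Arhgap9 on the opposite strand, a gene with 52 counts over all 6 libraries.

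Gli2 (ENSMUSG00000048402, chromosome 1, 120730709 to 120950196, minus strand) stood at 10.3, 7.32 and 9.998 CPM in the Klf9 +/+ replicates and at 8.93, 8.73 and 13.3 CPM in the Klf9 f/f replicates. The genotypes overlapped, with Klf9 f/f replicate 3 the highest and Klf9 +/+ replicate 2 the lowest. Its log2 fold change was 0.14 (95% interval -0.32 to 0.60), 0.024 within series 22 and 0.41 within series 32, and it was -0.0018 without Klf9 +/+ replicate 3.

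Gli3 (ENSMUSG00000021318, chromosome 13, 15555068 to 15821859, plus strand) had levels of 55.6, 32.9 and 31.3 CPM in the Klf9 +/+ replicates and of 37.5, 40.8 and 47.4 CPM in the Klf9 f/f replicates. Klf9 +/+ replicate 1 was above all other samples, and the remaining Klf9 +/+ samples were below all Klf9 f/f samples. The fitted log2 fold change was 0.078 (95% interval -0.43 to 0.59), with -0.13 within series 22 and 0.60 within series 32. The direction rested on single libraries. Without Klf9 +/+ replicate 1 the log2 fold change was 0.40, which passed the threshold of 1.2-fold and unadjusted p under 0.05, while without Klf9 +/+ replicate 2, Klf9 +/+ replicate 3 or Klf9 f/f replicate 3 it was -0.057, -0.18 and -0.18.

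**Figure D3:**
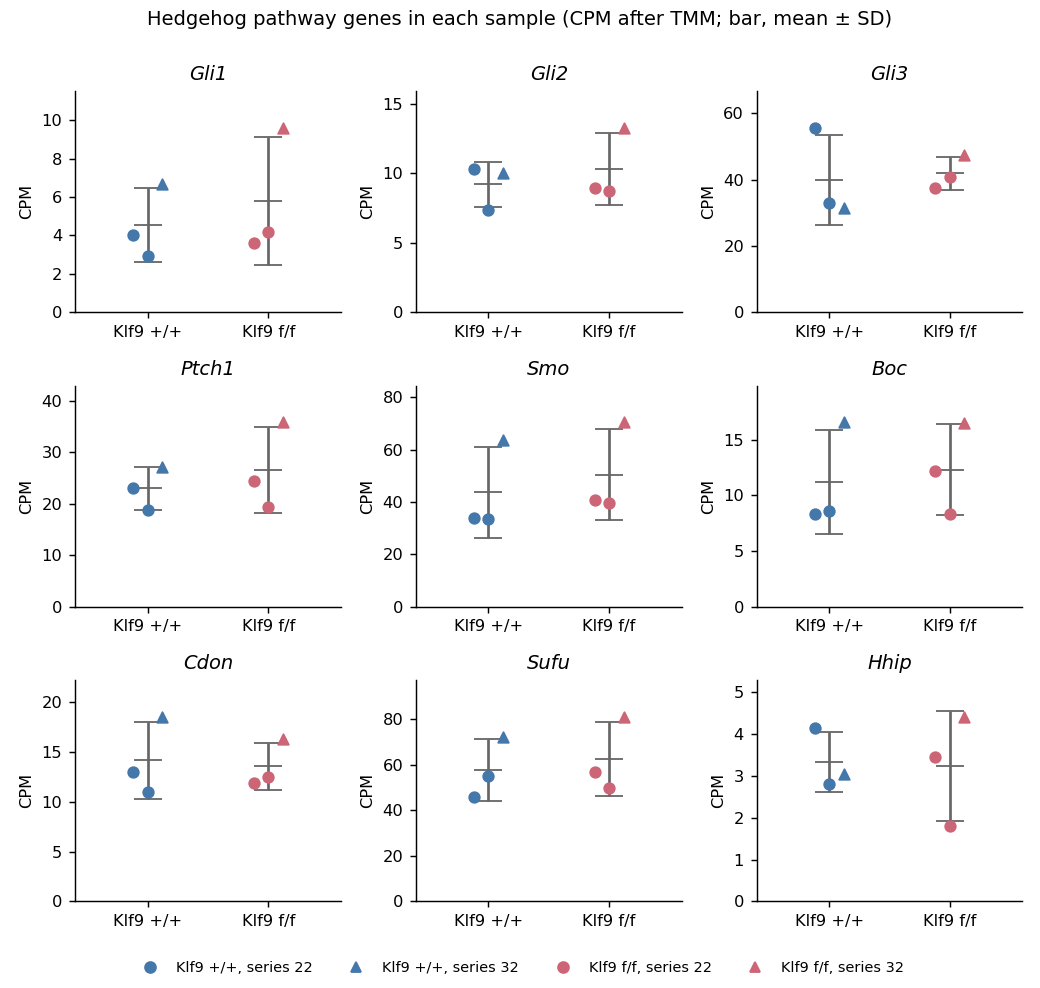
CPM of the 9 genes in each sample by genotype, with circles for library series 22, triangles for series 32 and bars for the mean and SD of 3 samples. The genotypes overlap for every gene, and for 6 genes (Gli1, Ptch1, Smo, Boc, Cdon and Sufu) both triangles lie above all circles.

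Of the receptor pair, Ptch1 (ENSMUSG00000021466, chromosome 13, 63610261 to 63674474, minus strand) was measured at 23.0, 18.8 and 27.1 CPM in the Klf9 +/+ replicates and at 24.4, 19.3 and 35.8 CPM in the Klf9 f/f replicates. The values of series 22 interleaved between genotypes. Ptch1 had a log2 fold change of 0.18 (95% interval -0.19 to 0.55), with 0.064 within series 22 and 0.40 within series 32, and leaving out single samples gave 0.062 (without Klf9 +/+ replicate 3) to 0.30 (without Klf9 f/f replicate 2). Smo (ENSMUSG00000001761, chromosome 6, 29685694 to 29711365, plus strand), the signal transducer, was measured at 33.9, 33.5 and 63.8 CPM in the Klf9 +/+ replicates and at 40.9, 39.7 and 70.4 CPM in the Klf9 f/f replicates. Within each series every Klf9 f/f value of Smo was above every Klf9 +/+ value, and over both series the genotypes overlapped. This order rests on 2 samples a genotype in series 22 and 1 in series 32. How many of all tested genes had the same order was not counted. Its log2 fold change was 0.22 (95% interval -0.054 to 0.49), with 0.26 within series 22 and 0.14 within series 32. The unadjusted p of Smo, 0.102, was the smallest of the 9 and did not pass the threshold.

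The co-receptor Boc (ENSMUSG00000022687, chromosome 16, 44485158 to 44559010, minus strand) was at 8.33, 8.61 and 16.5 CPM in the Klf9 +/+ replicates and at 12.1, 8.31 and 16.5 CPM in the Klf9 f/f replicates. Klf9 f/f replicate 1 stood above the other 3 samples of series 22, and the 2 samples of series 32 had nearly the same level. Boc had a log2 fold change of 0.18 (95% interval -0.26 to 0.62), with 0.24 within series 22 and -0.0050 within series 32, and it was -0.018 without Klf9 f/f replicate 1. For Cdon (ENSMUSG00000038119, chromosome 9, 35228713 to 35315236, plus strand), the related co-receptor, the Klf9 +/+ replicates gave 12.999, 11.0 and 18.5 CPM and the Klf9 f/f replicates 11.9, 12.5 and 16.3 CPM. All Klf9 f/f values of Cdon lay between the lowest and the highest Klf9 +/+ value. For Cdon the log2 fold change was -0.044 (95% interval -0.41 to 0.32), with 0.029 within series 22 and -0.18 within series 32. It was 0.0066, 0.025 and 0.019 without Klf9 +/+ replicate 1, Klf9 f/f replicate 3 and Klf9 +/+ replicate 3.

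Among the inhibitors, Sufu (ENSMUSG00000025231, chromosome 19, 46471386 to 46563294, plus strand) was at 45.6, 55.1 and 72.1 CPM in the Klf9 +/+ replicates and at 56.7, 49.9 and 80.8 CPM in the Klf9 f/f replicates. The genotypes overlapped within series 22. Sufu had a log2 fold change of 0.11 (95% interval -0.20 to 0.41), with 0.086 within series 22 and 0.16 within series 32, and leaving out single samples gave 0.042 (without Klf9 +/+ replicate 1) to 0.20 (without Klf9 +/+ replicate 2). Hhip (ENSMUSG00000064325, chromosome 8, 82490014 to 82581905, minus strand), the decoy and target gene, was at 4.14, 2.80 and 3.04 CPM in the Klf9 +/+ replicates and at 3.46, 1.81 and 4.41 CPM in the Klf9 f/f replicates. Klf9 f/f held both the highest and the lowest of its 6 values. The log2 fold change of Hhip was -0.094, and its 95% interval of -0.88 to 0.69 was the widest of the 9 genes. Hhip differed by -0.44 within series 22 and by 0.53 within series 32. Its sign turned to 0.17 without Klf9 +/+ replicate 1 and to 0.22 without Klf9 f/f replicate 2. With 90 to 227 counts a library, Hhip had the lowest count of the 9 genes in any library.

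The genotype difference was then compared between the library series with an interaction term. At an adjusted p under 0.05, 0% of all genes were called by edgeR's quasi-likelihood test, which gave 231 genes an unadjusted p under 0.05 and a smallest adjusted p of 0.0618. The likelihood-ratio test called 6 genes higher and 7 lower, and DESeq2 6 higher and 5 lower. Among the 9 genes the unadjusted p ran from 0.108 for Gli3 to 0.822 for Sufu. For Gli3 the genotype difference was higher in series 32 than in series 22 by 0.78 on the log2 scale (95% interval -0.20 to 1.75), and for Hhip by 0.93 (95% interval -0.68 to 2.53). Series 32 holds 1 sample a genotype, and both intervals include 0.

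Larger differences of these genes lay between the library series than between genotypes. With the genotype in the fit, 6 of the 9 genes were higher in series 32 than in series 22 at an adjusted p under 0.05 of edgeR's quasi-likelihood test, and none was lower. Over all genes 29.5% were called in either direction and 12.9% were called higher. The median log2 difference of the 9 genes was 0.55, against 0.03 over all tested genes. Both series 32 samples were above all 4 series 22 samples for the same 6 genes, as they were for 25.5% of all genes. The series cannot be told apart from depth, from the shares of reads set aside or from anything else that differed between the 2 sets of libraries.

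Gli1 showed the widest gap, with a log2 difference of 1.13 (2.19-fold, standard error 0.24, adjusted p = 0.0102 by edgeR's quasi-likelihood test). Its mean was 3.67 CPM in series 22 and 8.14 CPM in series 32, and 4.24% of tested genes had a larger difference. Smo followed at 0.86 (adjusted p = 0.00438), from a mean of 37.0 to 67.1 CPM, with 7.62% of genes above it. Boc was next at 0.83 (adjusted p = 0.0166), from 9.34 to 16.5 CPM. The smaller differences were those of Sufu at 0.56 (adjusted p = 0.0185), Ptch1 at 0.55 (adjusted p = 0.0406) and Cdon at 0.52 (adjusted p = 0.0451). Both co-receptors, both parts of the receptor pair, Sufu and Gli1 therefore moved with the series. The remaining Gli factors were not called, with log2 differences of 0.39 for Gli2 (adjusted p = 0.192) and -0.10 for Gli3 (adjusted p = 0.79), and neither was Hhip at 0.29 (adjusted p = 0.572). The interval of Gli3 ran from -0.64 to 0.45. These calls needed both series 32 libraries. Without Klf9 +/+ replicate 3 or Klf9 f/f replicate 3, 0 of the 9 genes had an adjusted p under 0.05, although the log2 difference of Gli1 was 1.34 and 0.95, and over all genes the calls of higher level fell from 1947 to 50 and to 283. Without Klf9 f/f replicate 2, 3 of the 9 were called, with Ptch1 at 0.45, Cdon at 0.55 and Sufu at 0.51 no longer past the threshold. Cdon was not called without Klf9 +/+ replicate 1 (0.56) either, nor were Ptch1 (0.53) and Cdon (0.47) without Klf9 +/+ replicate 2.

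**Figure D4:**
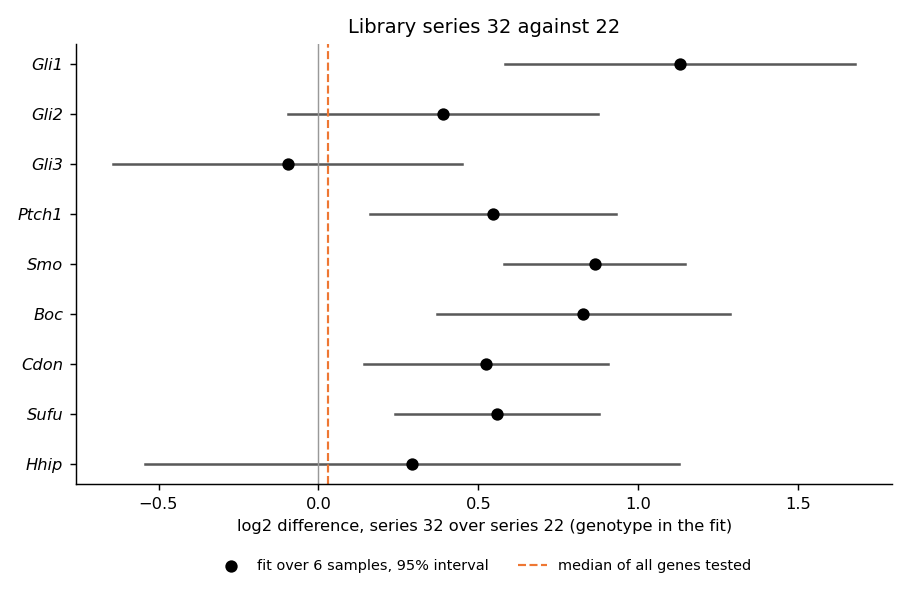
Log2 difference of library series 32 over series 22 for the 9 genes, with points and 95% intervals from the fit over 6 samples with the genotype as a term and a dashed line at the median of all tested genes (0.03). The intervals of 6 genes lie above 0, with Gli1 the highest at 1.13.

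The depth behind the driver gene is small. Gli1 had 198, 168 and 204 counts in Klf9 +/+ replicates 1, 2 and 3 and 236, 207 and 216 in the Klf9 f/f replicates. The raw counts were therefore similar in libraries with totals of 21594714 to 66343759, and the higher CPM of series 32 is a similar count over a smaller total. Exact Poisson 95% intervals, which cover counting error only, ran from 144 to 195 for the lowest count and from 207 to 268 for the highest. This was not particular to Gli1, as Smo had 1677 to 2678 counts in series 22 and 1952 and 1581 in series 32. For Gli3, by contrast, the series 22 libraries had 1890 to 2752 counts and those of series 32 had 957 and 1064.

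**Figure D5:**
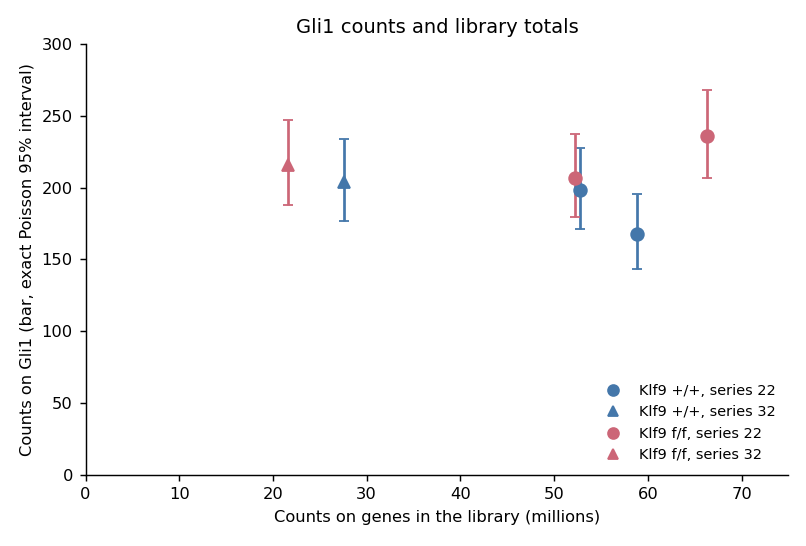
Raw counts on Gli1 (vertical axis) against the total counts on genes of each library (horizontal axis), with exact Poisson 95% intervals, circles for series 22 and triangles for series 32. Counts lie between 168 and 236 in every library, in the 2 smaller libraries of series 32 as in the 4 larger ones of series 22.

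Across the samples, log2 CPM centred within each library series was used to describe which patterns were most like that of Gli1. The 6 values of each gene come from 2 series and share the depth of their libraries, so the coefficients are a description. Gli2 had a Pearson's r with Gli1 of 0.89, Gli3 of 0.84, Ptch1 of 0.64 and Smo of 0.55. Of all tested genes, 2.09% had a higher r than Gli2, 3.77% than Gli3, 11.9% than Ptch1 and 16.2% than Smo. The other members were near 0, from 0.18 for Hhip and 0.15 for Cdon to -0.10 for Boc and -0.15 for Sufu. Without centring, the r with Gli1 was 0.95 for Smo, 0.90 for Ptch1, 0.90 for Gli2, 0.89 for Cdon, 0.83 for Sufu, 0.82 for Boc, 0.40 for Hhip and 0.19 for Gli3. The order of the members thus depended on the centring. Over all tested genes the highest r belonged to A930005H10Rik (0.998), Npas3 (0.996), Hsd11b1 (0.994), Gstm5 (0.994) and Wdyhv1 (0.994), over 6 samples. Without centring the r of these genes was -0.78, 0.78, -0.57, -0.75 and -0.75, and 0 of the 5 were among the 5 most like Gli1. These 5 genes were picked from all tested genes by their r within series, so the height of that r is no result about them. Only Npas3, a neural transcription factor, kept a positive r without centring.

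The wider pathway was read from lists of 33 further genes. Of these, 27 were tested, 5 were under the filter and Disp1 was not analysed here. At 1.2-fold and unadjusted p under 0.05, 1 of the 27 was higher and 0 were lower in Klf9 f/f, a share near the 4.32% called over all genes. The median log2 fold change was 0.0098, with 15 of 27 above 0 against 50.2% of all tested genes. The gene called was Evc2, a membrane protein at the base of the primary cilium that takes part in passing the signal from Smo. Evc2 was at 17.1, 13.97 and 23.3 CPM in the Klf9 +/+ replicates and at 21.4, 17.4 and 33.7 CPM in the Klf9 f/f replicates. Within series 22 the highest Klf9 +/+ value, 17.1 CPM, lay just under the lowest Klf9 f/f value, 17.4 CPM. In series 32, with 1 sample a genotype, Klf9 f/f was also higher, and over both series the genotypes overlapped. How many of all tested genes had this order was not counted. The log2 fold change of Evc2 was 0.39 (95% interval 0.030 to 0.75, adjusted p = 1 by edgeR's quasi-likelihood test), with 0.32 within series 22 and 0.53 within series 32. It stayed above 0 but did not pass the threshold without Klf9 +/+ replicate 2 (0.33), Klf9 +/+ replicate 3 (0.32), Klf9 f/f replicate 1 (0.32) or Klf9 f/f replicate 3 (0.32), or with no series term (0.41).

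Ligand mRNA was below 1 CPM in every sample. Shh had 12 counts over all 6 libraries, Ihh 30 and Dhh 36, and the highest level of any of these in a sample was 0.399 CPM. These 3 ligand genes were thus far below Gli1, which had 168 counts or more in each library. Of the enzymes and carriers that release ligand, Hhat was at 0.457 and Scube2 at 0.171 CPM per kb. Gas1, a membrane co-receptor, was at 52.8 CPM per kb, above each of the 9 genes, while the glypican Gpc3 was at 3.66 CPM per kb. None of these 4 was called, with log2 fold changes of -0.48 to -0.0051. Among the 12 regulators of Gli proteins, the kinase subunit Prkaca (75.6), the ubiquitin ligase adaptor Spop (59.0) and the kinase Csnk1a1 (33.4 CPM per kb) were the highest. Their log2 fold changes were 0.016, -0.032 and -0.042. Among 6 genes of ciliary transport, the motor subunit Kif3a led at 28.9 CPM per kb, ahead of the intraflagellar transport gene Ift172 at 3.96 and the ciliary GTPase gene Arl13b at 3.62, and 0 of 6 were called.

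Of 4 tested target genes outside the 9, Ccnd2 was at 330.2, Mycn at 56.7 and Ccnd1 at 8.13 CPM per kb. These cell cycle genes have other regulators too. Their log2 fold changes between genotypes were 0.057, 0.0047 and 0.22, and 0 of 4 were called. Against the library series, 6 of the 27 tested pathway genes were higher and 2 lower in series 32 at an adjusted p under 0.05 of edgeR's quasi-likelihood test, a share near the 29.5% called in either direction over all genes. Evc2 was among the higher ones (log2 difference 0.69, adjusted p = 0.0153), and the 2 lower ones were Kif3a (-0.62, adjusted p = 0.0145) and Ccnd2 (-0.60, adjusted p = 0.038). None of these 3 was called without Klf9 +/+ replicate 3 or without Klf9 f/f replicate 3 (Evc2 0.82 and 0.59, Kif3a -0.49 and -0.72, Ccnd2 -0.46 and -0.72), and Ccnd2 was also lost without Klf9 +/+ replicate 1 (-0.50), Klf9 +/+ replicate 2 (-0.64) or Klf9 f/f replicate 2 (-0.54).

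Some markers of other cell types also differed between the series or the genotypes, and their part in the levels of the 9 genes was not tested. The 8 choroid plexus markers, Ttr among them, summed to 120.0 to 2589 CPM in Klf9 +/+ and 13.3 to 387 CPM in Klf9 f/f, and 8 of 8 were called lower. By series they summed to 13.3 to 693 CPM in series 22 and 387 to 2589 CPM in series 32. Meningeal fibroblast markers (5, such as Dcn) summed to 447 to 899 CPM in series 22 and 820.3 to 1488 CPM in series 32, with 0 of 5 called between genotypes. The 6 endothelial markers, Cldn5 among them, summed to 62.9 to 159 CPM in Klf9 +/+ and 25.5 to 95.1 CPM in Klf9 f/f, with 2 of 6 called lower. Of 4 ependymal markers 2 and of 4 mural markers 1 were called lower in Klf9 f/f. The sums of 3 lists did not overlap between the series, with the granule neuron sum lower in series 32 and the others higher. Both series 32 samples were above all series 22 samples for 25.5% of all tested genes, and the share below was not counted. Ependymal markers summed to 14.2 to 26.9 CPM in series 22 and 32.6 to 51.0 CPM in series 32. For 3 oligodendrocyte precursor markers the sums were 44.1 to 62.0 CPM and 75.4 to 76.4 CPM. The 7 markers of the granule neuron list summed to 956 to 1142 CPM and 837 to 839 CPM. That list includes Rbfox3, Snap25 and Syt1, which are not particular to granule neurons. Of the 10 astrocyte markers 5 were called higher in Klf9 f/f, among them Gfap, by which the study also identified RGLs. Of the 9 radial glia-like stem cell markers 1 was, Lfng. Of the 3 oligodendrocyte precursor markers 1 was, Olig1. Over all tested genes 4.32% were called in either direction by the same rule. No marker of any list was at 0 in any library.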

How the data were processed

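Ribosome-bound mRNA was sequenced from 3 Klf9 +/+ and 3 Klf9 f/f samples. The authors mapped reads with STAR to mm9 and used HTSeq, ignoring strand, to count reads per gene. They deposited whole-number counts without normalization, with 5 summary lines that were left out of every test (16.4% to 26.6% of all reads counted or set aside). Library totals were 21594714 to 66343759.

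Of 37620 genes, the 15056 that exceeded 1 CPM in 1 or more samples were tested. After TMM normalization the counts were fitted with the quasi-likelihood test of edgeR 4.0.16 under R 4.3.3, with library series and genotype as terms (3 residual degrees of freedom in the linear model, 2 with their interaction). Adjusted p-values follow Benjamini and Hochberg over all genes tested. CPM are after TMM, and log2 CPM used a prior count of 2. Within-series differences are differences of mean log2 CPM. Names, coordinates and exon lengths came from GENCODE M1 on mm9. Promoter windows came from RefSeq. The tests were first tested on simulated data. Alternatives were a fit without the series term, the likelihood-ratio test, DESeq2 1.42.0, other normalizations, filters and lengths, each sample left out, and series 22 alone. Figures were drawn with matplotlib 3.10.9.

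The members and all lists were chosen with earlier results of these data known. Genes named are the 9 members, Klf9, listed pathway genes passing the genotype threshold, up to 3 per pathway list with the highest level per length, markers of the marker lists, and the 5 genes most like Gli1. Disp1, which has no row under that symbol, Arhgap9 and the ligand genes Shh, Ihh and Dhh were chosen after their values were seen. 1 gene that the rule would name is not reported here. p-values measure the spread between pools of tissue.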

Additional observations from a re-analysis of the deposited data

How the results depend on the processing

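No paired analysis was possible because the labels pair no samples and the replicate numbers are running numbers. For the genotype, the counts of all genes called higher and lower (274 and 376) became 50 and 163 without the series term, 513 and 926 with every gene of at least 1 count, and 163 and 202 in series 22 alone. Leaving out samples moved them to 130 to 493 and 209 to 719. Genes at an adjusted p under 0.05 (0) became 58 by the likelihood-ratio test, 39 by DESeq2, 334 with the loose filter, 13 in series 22 alone and 0 to 15 with a sample left out. Without the series term Kif3a was at -0.0082, and with upper-quartile normalization at -0.0012, on the log2 scale. In series 22 alone Kif3a was at -0.066, Ccnd2 at -0.029, Gli2 at -0.0021, Gli3 at -0.18 and Cdon at 0.019 on the log2 scale. With a sample left out, the log2 fold change of Boc ran from -0.018 to 0.30, of Cdon from -0.13 to 0.025, of Gli2 from -0.0018 to 0.33, of Gli3 from -0.18 to 0.40, of Kif3a from -0.067 to 0.10, of Ccnd2 from -0.029 to 0.19, of Hhip from -0.40 to 0.22, of Ptch1 from 0.062 to 0.30 and of Sufu from 0.042 to 0.20. Members called numbered 0 to 1, the 1 being Gli3 without Klf9 +/+ replicate 1, and 0 under every other alternative run. Gli1, Ptch1, Smo and Sufu stayed above 0 under every alternative run.

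For the library series, the 6 members called fell to 5 with every gene of at least 1 count, where Cdon at 0.52 was not called, and ran from 0 to 6 with a sample left out. The log2 differences then ran from 0.95 to 1.34 for Gli1, 0.83 to 0.92 for Smo, 0.71 to 0.97 for Boc, 0.51 to 0.64 for Sufu, 0.38 to 0.73 for Ptch1, 0.44 to 0.63 for Cdon, -0.50 to 0.30 for Gli3, -0.54 to 0.054 for Klf9 and -0.19 to 0.76 for Hhip, and the counts of all genes from 50 to 2640 higher and 34 to 2916 lower. For the interaction, the likelihood-ratio test called 6 genes higher and 7 lower and DESeq2 6 and 5, against 0. By the longest transcript 5 members kept their place, and without centring 0 of the 5 genes most like Gli1 were shared. Where calls are lost with fewer samples, the fit also has fewer degrees of freedom. Depth limits Gli1 (168 to 236 counts) and Hhip (90 to 227 counts) most.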
